A study of Mus musculus with 10 samples.

Results

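Levels are given here for 10 genes of histone H3 lysine 9 (H3K9) methylation and retroelement silencing, measured by RNA-seq in mouse embryonic stem cells. They are Trim28, Zfp57, Setdb1, Ehmt1, Ehmt2, Suv39h1, Suv39h2, Cbx1, Cbx5 and Morc3, chosen by name from what their proteins do and found by Ensembl gene ID. The choice was made with earlier results of these data known. All 10 were found among the 55487 genes of the tables. The study mapped R-loops, in which RNA pairs with one DNA strand, in the E14 mouse embryonic stem cell line. Its R-loop samples were not analysed here. The 3 RNA-seq replicates form 1 group with no contrast. E14 cells were cultured in 15% fetal bovine serum with LIF, 3 µM of a GSK inhibitor and 1 µM of a MEK1/2 inhibitor, and no genetic change or treatment is labelled. Total RNA was depleted of ribosomal RNA before directional libraries were made. No label says that the replicates are separate cultures, so every SD and p-value measures the spread between these libraries, which may be technical.

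Methylation of H3K9 marks silent chromatin. SETDB1 and the SUV39H enzymes add the trimethyl mark, and the EHMT1-EHMT2 pair (GLP and G9a) adds mainly the mono- and dimethyl marks. In embryonic stem cells, KRAB zinc finger proteins bind particular DNA sequences, many of them in retroelements, and recruit TRIM28 (KAP1), which brings in SETDB1. HP1 proteins, among them CBX1 and CBX5, bind methylated H3K9. MORC3 is a nuclear ATPase with a part in the silencing of endogenous retroviruses. The tables list genes, and transcripts of the retroelement families themselves were not analysed here.

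The 3 libraries held 11420425, 6467405 and 5787357 estimated counts. The tables give TPM, a level per unit of transcript length, scaled to a common total, that can be compared between genes. All 5 embryonic stem cell markers had a mean of at least 1 TPM, from 32.9 TPM for Sox2 to 183 TPM for Nanog, and their summed level ranged from 420.8 to 558.8 TPM. Of 6 markers of differentiated lineages, 0 reached 1 TPM, with summed levels of 0.82 to 1.91 TPM. Of 5 fibroblast feeder markers, Thy1 alone did, at 2.50 ± 1.15 TPM (SD, n = 3). The feeder markers summed to 1.24 to 3.37 TPM, and Dcn and Lum had 0 counts in every library.

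The promoters of the 10 genes differed in their content of CG dinucleotides, the sites of DNA methylation. The 150 bases before the start site are printed for 5 genes that span the range: the corepressor Trim28, the zinc finger gene Zfp57, both HP1 members and Suv39h2. They are RefSeq sequences of GRCm38.p6, 5′ to 3′ on the gene's own strand, with CG in capitals.
Trim28 (chr7:13024002-13024151, plus strand): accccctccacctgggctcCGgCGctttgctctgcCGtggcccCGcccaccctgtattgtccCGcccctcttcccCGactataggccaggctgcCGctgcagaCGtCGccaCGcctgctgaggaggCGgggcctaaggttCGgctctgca
Zfp57 (chr17:37001013-37001162, plus strand): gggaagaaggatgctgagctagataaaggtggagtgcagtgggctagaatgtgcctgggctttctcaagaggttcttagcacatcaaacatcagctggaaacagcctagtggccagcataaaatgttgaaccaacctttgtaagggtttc
Cbx1 (chr11:96788985-96789134, plus strand): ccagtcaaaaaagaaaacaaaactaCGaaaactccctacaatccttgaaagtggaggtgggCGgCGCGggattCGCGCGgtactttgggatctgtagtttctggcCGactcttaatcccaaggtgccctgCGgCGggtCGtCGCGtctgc
Cbx5 (chr15:103239853-103240002, minus strand): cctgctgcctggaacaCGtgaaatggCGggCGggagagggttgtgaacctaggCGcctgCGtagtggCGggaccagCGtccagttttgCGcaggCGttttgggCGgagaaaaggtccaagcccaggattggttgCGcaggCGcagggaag
Suv39h2 (chr2:3474987-3475136, minus strand): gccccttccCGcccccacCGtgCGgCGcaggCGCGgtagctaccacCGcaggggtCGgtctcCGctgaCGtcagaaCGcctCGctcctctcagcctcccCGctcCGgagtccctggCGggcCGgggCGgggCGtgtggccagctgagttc
These windows held 12 CG in Trim28, 13 in Cbx1, 12 in Cbx5, 18 in Suv39h2 and 0 in Zfp57. No DNA methylation was measured in the data used here.

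Over 300 bases (250 before to 50 after the start), the CG count was divided by the number expected from the C and G content. The ratio was 0.376 for Zfp57, a gene of 6 CG in that window. It was 0.703 for Setdb1, 0.720 for Suv39h1, 0.759 for Ehmt2, 0.761 for Trim28 and 0.890 for Ehmt1. It was 0.943 for Suv39h2, 0.997 for Morc3, 1.06 for Cbx1 and 1.09 for Cbx5. Thus 9 of 10 members were at or above 0.6, against 74.5% of 9907 promoters of expressed protein-coding genes and 35.8% of all 32851 RefSeq promoters. For members with several starts, the start nearest to the annotated gene start was used. The background shares count every RefSeq start of a gene, so members and background were not counted alike. The other Zfp57 starts gave 0.438 and 0.295, so none of its 3 promoters reached 0.6. The other starts of Cbx5, Ehmt2 and Suv39h1 gave 0.358, 0.803 and 1.09.

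**Figure D1:**
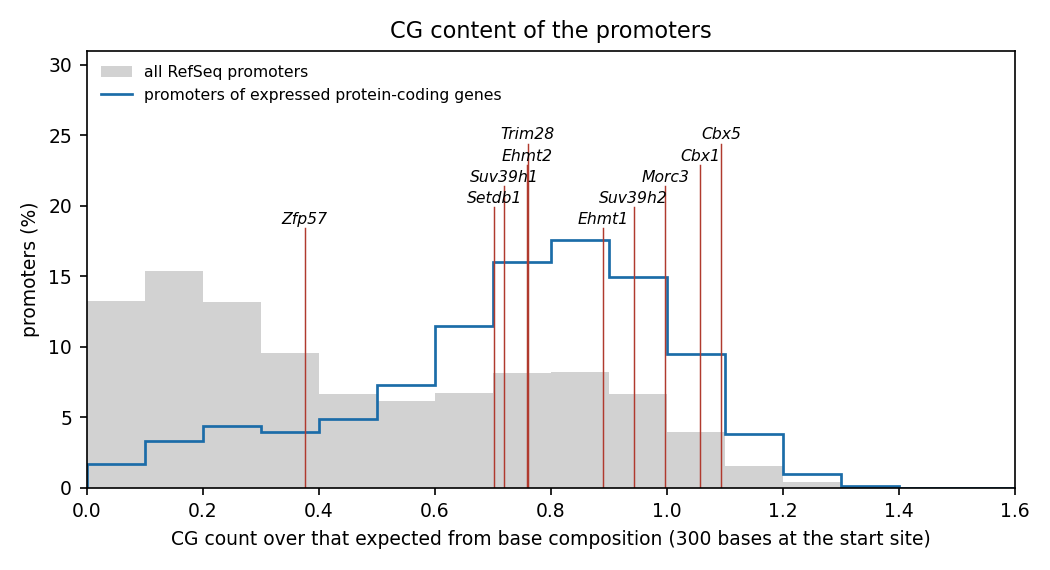
The x axis gives the CG count divided by that expected from base composition in 300 bases at the start site, and the y axis the percentage of promoters. Grey fill is all 32851 RefSeq promoters, the blue line is 9907 promoters of expressed protein-coding genes, and red lines are the 10 genes, of which Zfp57 at 0.376 is the lowest and Cbx5 at 1.09 the highest.

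Short motifs of known factors were looked for on both strands of the same 300 bases. No motif searched holds another within it. The GC box GGGCGG was present in 9 members, all but Zfp57, against 65.4% of promoters of expressed protein-coding genes and 35.7% of all promoters. The TATA box letters TATAAA were present in Zfp57 alone, against 6.28% and 13.6%. That match lay outside the 150 bases printed before the start, and the other Zfp57 starts had none. The NRF1 core CGCANGCG was present in 6 members (Cbx5, Ehmt1, Ehmt2, Morc3, Suv39h1 and Suv39h2), against 18.7% and 8.21%. CCAAT was present in 4 (Cbx5, Morc3, Setdb1 and Suv39h1), against 39.3% and 37.4%. The E-box CACGTG was present in Cbx5 and Ehmt2, against 10.6% and 7.15%. The cAMP response element TGACGTCA was present in Suv39h2, against 3.38% and 1.79%. As above, each member was counted at its nearest start and the background at every start. These are matches of letters, and no binding was measured.

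All 10 genes were expressed. Each had a mean of at least 1 TPM, a limit passed by 44.1% of 21974 protein-coding genes. At a limit of 5 TPM, 8 of 10 passed, but the share of all protein-coding genes at that limit was not counted. Means ran from 3.79 TPM for Suv39h1 to 172.7 TPM for Trim28. The median of log2(TPM + 1) over the 10 genes was 4.13 ± 0.33 (SD, n = 3), beside 2.72 ± 0.29 over the 9683 expressed protein-coding genes and 2.70 ± 0.28 over all 11000 expressed genes. The genes were picked for their known roles with earlier results of these data known, so the choice was not blind to their levels. No test was made of the list. In bulk RNA, fewer cells with a transcript and less RNA per cell cannot be told apart. Coordinates below are those of GENCODE vM21 on GRCm38.

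**Figure D2:**
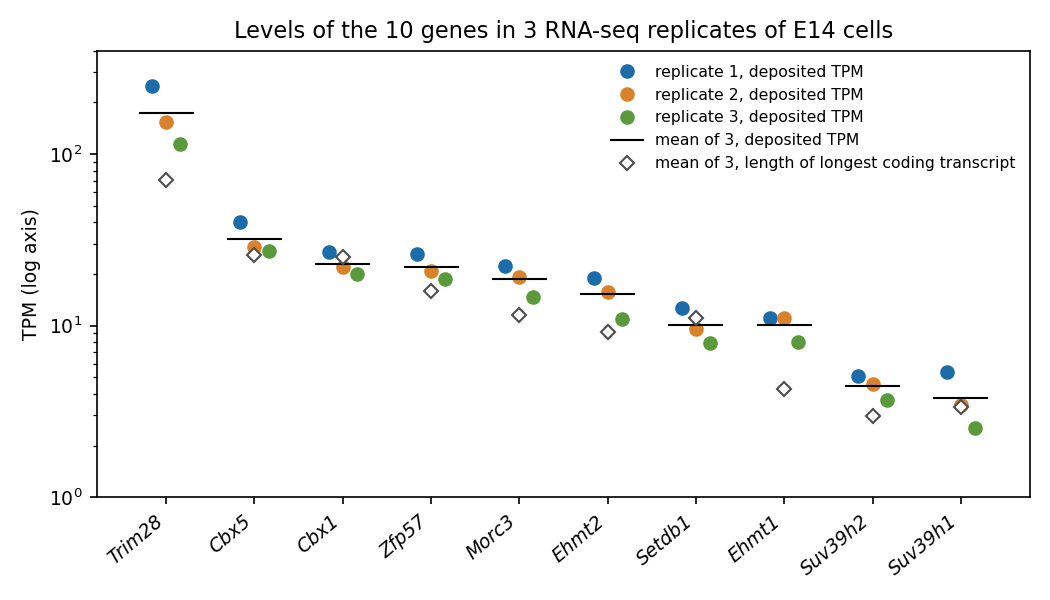
The y axis gives TPM on a log axis for each of the 10 genes, ordered by mean. Filled points are the 3 replicates, the black line their mean with the deposited lengths, and the open diamond the mean recomputed with the longest coding transcript as length. Trim28 lies above all other members in every replicate and Suv39h1 and Suv39h2 lie lowest, and the diamond of Trim28 (71.0 TPM) is far below its deposited mean (172.7 TPM).

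Trim28 (ENSMUSG00000005566; chromosome 7, 12999114 to 13031035, plus strand) encodes the corepressor that links KRAB zinc finger proteins to SETDB1. It was at 250.05, 154.01 and 113.97 TPM in replicates 1, 2 and 3, from 7316, 3883 and 2947 counts. This mean of 172.7 ± 69.9 TPM (SD, n = 3) ranked 140th of 9683 expressed protein-coding genes. Replicate 1 was the highest and replicate 3 the lowest. The spread lay mainly on the TPM scale: the coefficient of variation was 40.5% for TPM and 11.5% for CPM, the count scaled to the library total alone.

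The length behind the Trim28 level was short. Of its 10 annotated transcripts 1 is coding, with 17 exons and 3245 nt, 8 are labelled retained intron, and the shortest has 562 nt. The tables give the gene a length of 1216.26, 1474.88 and 1495.19 nt, or 37.5%, 45.5% and 46.1% of the coding transcript. If that length is the abundance-weighted mean over the annotated transcripts, the coding transcript held at least 9.47%, 21.0% and 21.9% of the gene's transcript abundance in replicates 1, 2 and 3. By the same reckoning it held at most 24.4%, 34.0% and 34.8%. TPM was also recomputed with the longest coding transcript as length across genes, not for Trim28 alone. The Trim28 level would then be 91.96, 69.03 and 52.01 TPM, a mean of 71.0 ± 20.0 TPM (SD, n = 3). Trim28 stayed the highest member on either length.

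Zfp57 (ENSMUSG00000036036; chromosome 17, 37001163 to 37010635, plus strand) encodes a KRAB zinc finger protein that keeps DNA methylation at imprinting control regions. It was at 25.99, 20.91 and 18.65 TPM, from 1250, 692 and 567 counts. The mean of 21.85 ± 3.76 TPM (SD, n = 3) was above that of 86.3% of expressed protein-coding genes. The promoter printed with no CG in 150 bases is that of this gene.

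Among the 5 methyltransferase genes, Ehmt2 had the highest level per length and the SUV39H pair the lowest. Ehmt2 (ENSMUSG00000013787; chromosome 17, 34898469 to 34914052, plus strand), coding for G9a, was at 19.02, 15.63 and 10.99 TPM, a mean of 15.2 ± 4.03 TPM (SD, n = 3). Ehmt1 (ENSMUSG00000036893; chromosome 2, 24789928 to 24919614, minus strand), coding for its partner GLP, was at 11.01, 11.02 and 8.05 TPM, a mean of 10.03 ± 1.71 TPM (SD, n = 3). The level of Ehmt1 was below that of Ehmt2 in 3 of 3 libraries, though the ranges of the 2 genes overlapped narrowly. The within-library difference on the log2(TPM + 1) scale was -0.54 ± 0.18 (SD, n = 3), and Ehmt1 TPM was 0.672 ± 0.082 of Ehmt2 TPM. With the longest coding transcript as length, an alternative added after the data were seen, the difference was -0.95 ± 0.11 (SD, n = 3). An exact two-sided sign-flip permutation test over the 3 libraries gave p = 0.25, the smallest it can give, and 0.333 after Benjamini-Hochberg adjustment over the 4 pairs compared.

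Setdb1 (ENSMUSG00000015697; chromosome 3, 95323525 to 95357202, minus strand) encodes the trimethylase recruited by TRIM28. It was at 12.67, 9.62 and 7.88 TPM, a mean of 10.06 ± 2.42 TPM (SD, n = 3). Its counts of 1659.84, 853.68 and 697.13 were the only ones among the members that were not whole, meaning that some reads were divided with other genes. Setdb1 and Ehmt1 could not be ordered: Setdb1 was higher in 1 of 3 libraries and the mean difference was -0.01 ± 0.18 (SD, n = 3) on the log2(TPM + 1) scale.

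Suv39h2 (ENSMUSG00000026646; chromosome 2, 3455815 to 3475031, minus strand) was at 5.07, 4.56 and 3.70 TPM, from 374, 226 and 190 counts. Suv39h1 (ENSMUSG00000039231; chromosome X, 8061171 to 8074760, minus strand) was at 5.40, 3.45 and 2.53 TPM, from 375, 161 and 114 counts. Their means of 4.44 ± 0.69 and 3.79 ± 1.47 TPM (SD, n = 3) stood above 40.8% and 35.5% of expressed protein-coding genes. These paralogous enzymes trimethylate H3K9 at pericentric heterochromatin. Suv39h1 was the higher in replicate 1 and the lower in the other libraries, so the pair had no fixed order. The difference was -0.22 ± 0.26 (SD, n = 3) on the log2(TPM + 1) scale, with p = 0.5 by the exact sign-flip permutation test and 0.5 after adjustment over the 4 pairs. With the longest coding transcript as length its sign turned, to 0.077 ± 0.292 (SD, n = 3).

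Of the summed TPM of the 5 writers (43.5 ± 10.03 TPM), Ehmt2 held 34.7 ± 1.40%, Ehmt1 23.3 ± 2.26%, Setdb1 23.1 ± 1.20%, Suv39h2 10.3 ± 0.81% and Suv39h1 8.53 ± 1.41% (SD, n = 3). With the longest coding transcript as length, Setdb1 held the most, at 35.9 ± 1.10%. Ehmt2 then held 29.9 ± 1.94%, Ehmt1 13.8 ± 1.04%, Suv39h1 10.5 ± 1.81% and Suv39h2 9.85 ± 0.93%. The leading writer depended on the length assigned to each gene.

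The HP1 genes were among the higher members. Cbx5 (ENSMUSG00000009575; chromosome 15, 103191544 to 103239816, minus strand), coding for HP1alpha, was at 40.24, 28.82 and 27.21 TPM, from 7159, 3842 and 3276 counts. Cbx1 (ENSMUSG00000018666; chromosome 11, 96789127 to 96808640, plus strand), coding for HP1beta, was at 26.88, 22.07 and 20.04 TPM, from 1281, 742 and 665 counts. The means were 32.1 ± 7.10 and 23.0 ± 3.51 TPM (SD, n = 3), and the 2 ranges did not overlap. Cbx5 exceeded Cbx1 by 0.45 ± 0.10 (SD, n = 3) on the log2(TPM + 1) scale in 3 of 3 libraries, with p = 0.25 by the exact sign-flip permutation test (0.333 adjusted). That difference was 0.02 ± 0.088 with the longest coding transcript as length, so it depended on the length assigned to Cbx5.

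Cbx3, coding for HP1gamma and not a member, was the highest HP1 gene, at 84.15, 72.74 and 52.35 TPM (mean 69.7 ± 16.1, SD, n = 3). It exceeded Cbx1 by 1.54 ± 0.18 (SD, n = 3) on the log2(TPM + 1) scale in 3 of 3 libraries (exact sign-flip p = 0.25, 0.333 adjusted). Cbx3 held 55.7 ± 3.14% of the summed HP1 level of 124.8 ± 25.9 TPM, Cbx5 25.7 ± 2.14% and Cbx1 18.6 ± 1.33% (SD, n = 3). With the longest coding transcripts these shares were 57.0%, 21.7% and 21.3%. Cbx3 counts were not whole in any library.

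Morc3 (ENSMUSG00000039456; chromosome 16, 93832121 to 93876073, plus strand) was at 22.24, 19.12 and 14.59 TPM, from 1360, 898 and 681 counts. Its mean of 18.65 ± 3.85 TPM (SD, n = 3) lay between those of Zfp57 and Ehmt2, and its range overlapped both.

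By mean TPM the order was Trim28, Cbx5, Cbx1, Zfp57, Morc3, Ehmt2, Setdb1, Ehmt1, Suv39h2 and Suv39h1. Of the 9 pairs of neighbours in it, 6 had overlapping ranges. The other 3 were Trim28 over Cbx5, by 2.34 ± 0.29, Cbx5 over Cbx1, by 0.45 ± 0.10, and Ehmt1 over Suv39h2, by 1.01 ± 0.087 (SD, n = 3, log2(TPM + 1) scale). Within libraries 7 of the 9 pairs kept the same order in all 3. The exceptions were Setdb1 with Ehmt1 and Suv39h2 with Suv39h1. With the longest coding transcript as length, Setdb1 stood above Ehmt2 and Suv39h1 above Suv39h2. The lead of Cbx5 over Cbx1 then shrank to 0.02 ± 0.088 (SD, n = 3), and Cbx1 was the higher in replicate 3.

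The assigned length also differed between libraries. Ehmt1, with 18 transcripts of which 11 are coding and a longest of 5953 nt over 27 exons, was given 2930.77, 2330.18 and 2149.76 nt. That is 49.2%, 39.1% and 36.1% of its longest coding transcript, in libraries with 834, 457 and 308 Ehmt1 counts. The longest Ehmt1 length was that of replicate 1. For Ehmt2 it was that of replicate 3, with 2231.02, 2360.87 and 2572.84 nt against a longest coding transcript of 4026 nt. Cbx5 was given 6699.06, 7167.68 and 6476.79 nt of 8803 nt. Cbx1 was given 1895.19, 1917.31 and 1881.39 nt, slightly above its longest coding transcript of 1824 nt.

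**Figure D3:**
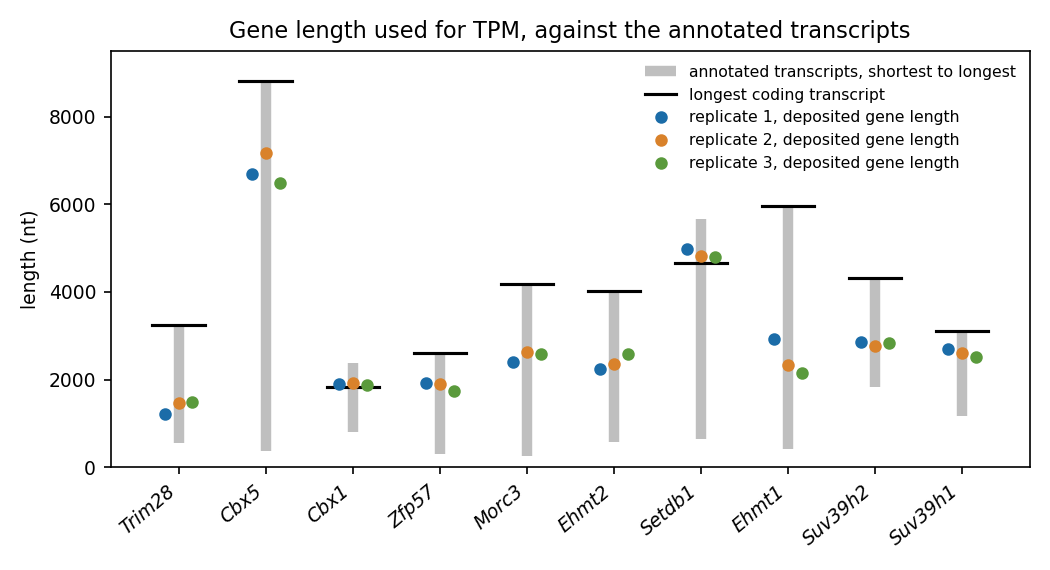
The y axis gives length in nt for each of the 10 genes. Grey bars span the annotated transcripts from shortest to longest, the black line is the longest coding transcript, and points are the gene lengths of the 3 replicates, which for Trim28 lie between 1216.26 and 1495.19 nt under a coding transcript of 3245 nt.

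No member was called as varying between replicates beyond genes of like abundance, which is near the background share and is no result about the members. By edgeR's goodness-of-fit test under the trended dispersion, 0 of 10 members were called at an adjusted p under 0.05, where 232 of 12577 genes tested (1.84%) were. At an unadjusted p under 0.05 the counts were 0 members and 875 genes. The lowest unadjusted p among the members in that edgeR test was 0.267, for Suv39h1, and every member's adjusted p was 1.00. The biological coefficient of variation shared by the libraries was 0.162, and 0.0906 without replicate 3, and the test is read against that spread. In simulated counts the test called 5 of 50 genes changed 2-fold in 1 replicate, and 48 of 50 changed 4-fold. A 2-fold difference in 1 library may therefore go uncalled.

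TPM was lowest in replicate 3 for 10 of 10 members, as it was for 79.4% of the expressed protein-coding genes. On CPM scaled by TMM, which removes a shift common to all genes, replicate 3 was lowest for 3 of 10 members (Trim28, Ehmt1 and Suv39h1) and for 40.5% of expressed protein-coding genes tested. From replicate 1 to replicate 3 the median member differed by a log2 TPM ratio of 0.59, and the median of 8239 expressed genes by 0.62. On TMM-scaled CPM these medians were -0.03 and -0.02.

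The log2 TPM ratio of replicate 1 to 3 divides into a count part, a length part and a part of 0.47 common to all genes, set by the total to which TPM is scaled. Trim28 had the largest ratio among the members, 1.13, of which 0.33 came from counts and 0.34 from length. Suv39h1 had 1.09, of which 0.74 came from counts and -0.11 from length. Ehmt1 had 0.45, in which a count part of 0.46 and a length part of -0.47 cancelled. On TMM-scaled CPM, Suv39h1 had the largest ratio among the members, 0.55, with 31.4, 24.3 and 21.5 in the 3 libraries. Ehmt1 followed at 0.27 and Cbx1 had the lowest, -0.22.

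**Figure D4:**
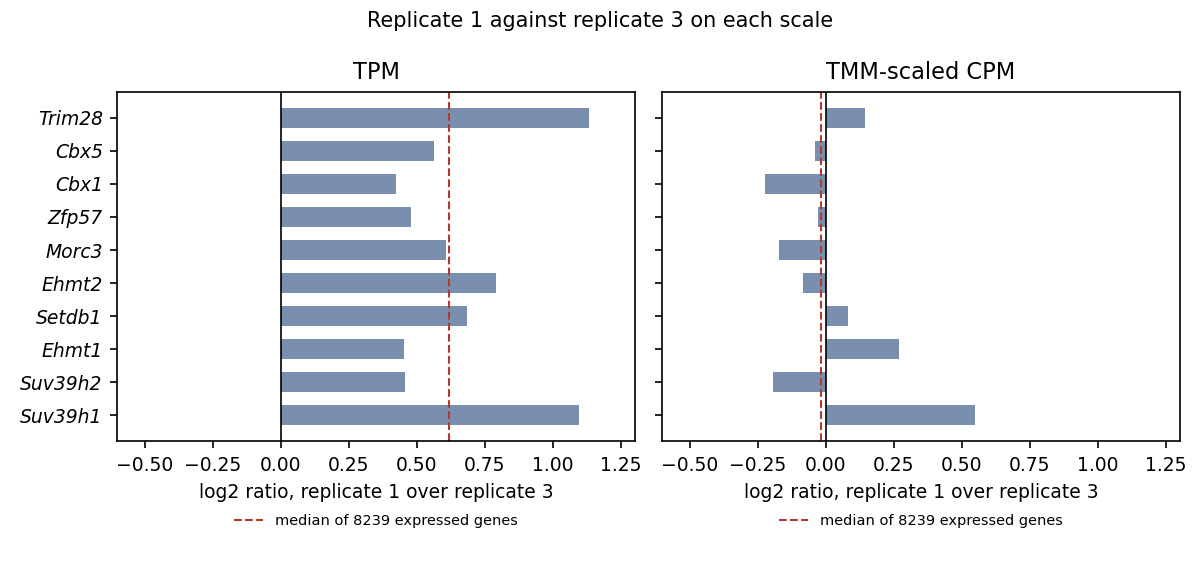
Bars give the log2 ratio of replicate 1 over replicate 3 for each of the 10 genes, on TPM in one panel and on TMM-scaled CPM in the other, and the dashed line is the median of 8239 expressed genes. On TPM every bar is positive, and on TMM-scaled CPM the bars scatter around 0 from -0.22 for Cbx1 to 0.55 for Suv39h1.

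Some members share ground with other genes, and whether the counting used strand is not stated in the sources used here. Overlaps are given between whole gene spans, introns included, and the length of shared exons was not counted. Suv39h1 is overlapped over 13449 nt by the antisense gene Gm14820, at 80, 47 and 42 counts. Suv39h2 is overlapped over 8316 nt by Dclre1c on the opposite strand, at 160, 87 and 85 counts. Setdb1 shares 75 nt with Cers2 (1342, 678 and 509 counts), and Trim28 shares 6137 nt with Zbtb45 (166, 94 and 46 counts). The counts of Trim28, Suv39h1, Suv39h2 and these 4 neighbours were whole in every library, so none shows reads divided between genes. Without strand, a read in a shared exon stretch could still come from either gene, and these levels are uncertain to a degree not measured here. Ehmt1 holds Gm38147 and Gm37139 on its own strand, at most 40 and 24 counts. A RefSeq start on the opposite strand lay within 1000 bp of the start of 3 members (Trim28, Cbx5 and Morc3) and of 25.4% of 7710 expressed protein-coding genes. For Cbx5 it was that of Hnrnpa1, 545 bp away, a splicing factor gene at 116.27, 104.2 and 88.89 TPM.

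Most genes of the surrounding machinery were expressed too. Over 27 genes in the lists of SETDB1 cofactors, HUSH and MORC2, other MORC genes, G9a-GLP partners, KRAB zinc finger proteins, TIF1 relatives and Cbx3, 22 had a mean of at least 1 TPM, and their median log2(TPM + 1) was 3.48 ± 0.41 (SD, n = 3). The limit of 1 TPM was passed by 44.1% of all protein-coding genes. The variability test called 1 of the 25 machinery genes that could be tested, against 1.84% of all genes tested. These lists were chosen with earlier results of these data known.

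All 4 SETDB1-related genes were expressed. Resf1, a regulator of endogenous retrovirus silencing, was at 41.9 ± 13.1 TPM, and Atf7ip, whose protein stabilises SETDB1, at 13.6 ± 5.80 TPM (SD, n = 3). Atf7ip2 was at 4.13 ± 1.09 TPM and Setdb2 at 2.93 ± 0.66 TPM (SD, n = 3). The HUSH complex silences transposons and transgenes with SETDB1. Its H3K9me3-binding subunit gene Mphosph8 was at 20.2 ± 5.83 TPM, Fam208a (TASOR) at 11.5 ± 3.42 TPM and Pphln1 at 4.86, 3.82 and 3.33 TPM in the 3 libraries (SDs over n = 3). Morc2a, an ATPase that works with HUSH, was at 10.4 ± 3.37 TPM (SD, n = 3).

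Of the other MORC genes, Morc1, a silencer of transposons in the male germline, was at 16.7 ± 2.59 TPM, close to Morc3 (SD, n = 3). Morc4 was at 0.597 ± 0.279 TPM and Morc2b at 0.027 ± 0.015 TPM (SD, n = 3). Among partners of G9a and GLP, Zfp644 was at 20.9 ± 3.73 TPM, Cdyl2 at 10.05 ± 2.22 TPM and Cdyl at 3.27 ± 0.79 TPM (SD, n = 3). Wiz, a zinc finger protein bound to the G9a-GLP pair, had 484, 235 and 68 counts, or 4.66, 3.23 and 0.92 TPM. Replicate 3 stood apart, and Wiz was the listed machinery gene that the edgeR goodness-of-fit test called (adjusted p = 0.00213).

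Of 8 KRAB zinc finger genes, 6 reached 1 TPM, against 44.1% of all protein-coding genes. The highest were Zfp961 at 30.9 ± 5.23 TPM, Zfp809, whose protein binds retroviral primer binding sites, at 19.1 ± 3.95 TPM, and Zfp445, which acts beside ZFP57 at imprints, at 15.2 ± 3.12 TPM (SD, n = 3). The lowest were Zfp819 at 0.707 ± 0.205 TPM and Zfp708 at 0.033 ± 0.058 TPM (SD, n = 3). Zfp57, at 21.85 TPM, lay within this range. Of the TIF1 relatives of TRIM28, Trim24 was at 32.1 ± 6.69 TPM, Trim33 at 13.6 ± 4.61 TPM and Trim66 at 0.233 ± 0.097 TPM (SD, n = 3). Trim28 was above all of these genes.

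The enzymes that remove the mark were expressed beside those that add it. Of 10 demethylase genes 8 reached 1 TPM, against 44.1% of all protein-coding genes. Of the 9 tested, 0 were called as varying, against 1.84% of all genes tested. Kdm3a, which removes mono- and dimethyl H3K9, was at 28.2 ± 4.56 TPM, Kdm1a (LSD1) at 27.2 ± 11.5 TPM and Kdm3b at 11.3 ± 3.91 TPM (SD, n = 3). Phf2 was at 0.467 ± 0.210 TPM and Kdm4d had 1, 0 and 0 counts. Of 13 repressor partners all reached 1 TPM, again against 44.1% of all protein-coding genes. They were led by Sumo2 at 151 ± 26.9 TPM, Zfp42, also listed as a stem cell marker, at 68.8 ± 2.39 TPM and Hells at 47.7 ± 10.9 TPM (SD, n = 3). SUMO2 modifies TRIM28, and HELLS is a chromatin remodeller needed for DNA methylation at repeats. The lowest were Yy1 at 8.89 ± 1.85 TPM and Chaf1a, a subunit of the CAF-1 histone chaperone, at 4.03 ± 0.60 TPM (SD, n = 3).

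**Figure D5:**
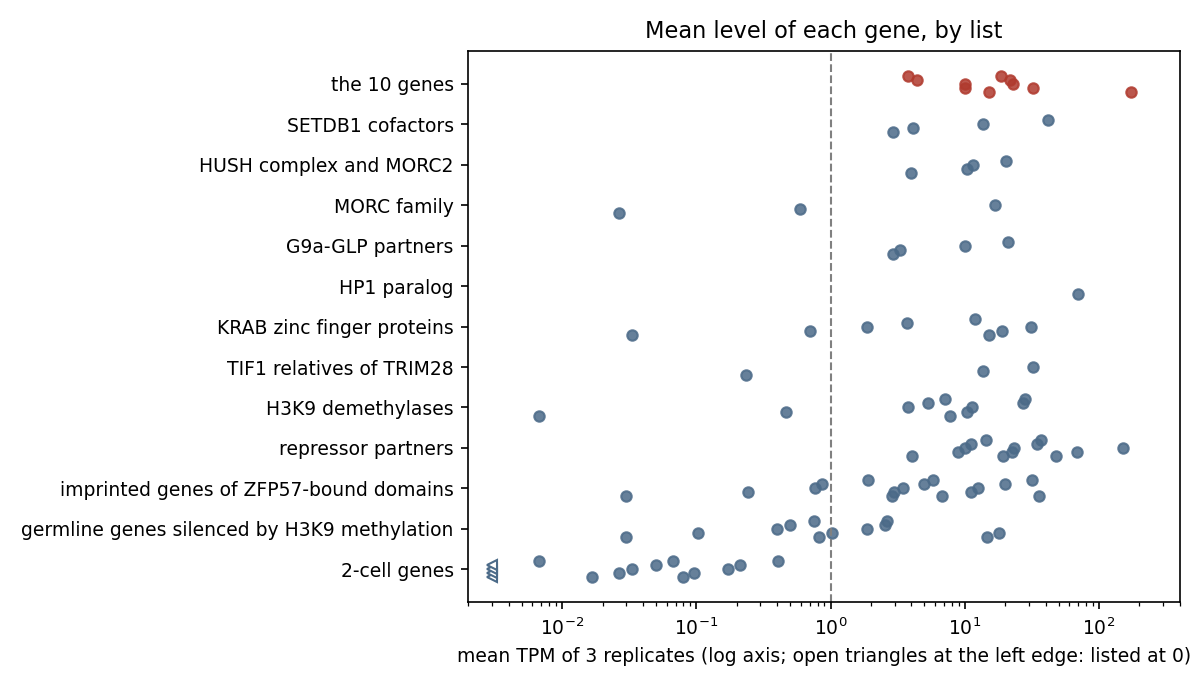
The x axis gives the mean TPM of 3 replicates on a log axis for every gene of each list, with the 10 members in red, a dashed line at 1 TPM and open triangles at the left edge for genes listed at 0. All 10 members lie to the right of the line, and all 15 matched genes of the 2-cell list lie to its left.

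Genes of the 2-cell stage and the germline that this machinery is reported to hold silent were counted in the same way, as were imprinted genes. Of 15 matched genes of the 2-cell stage, whose transcripts appear when TRIM28 or G9a is lost, 0 reached 1 TPM, against 44.1% of all protein-coding genes. Among the 15, 8 were at or under 3 counts in every library. The highest were Zscan4f at 0.403 ± 0.217 TPM, Zscan4c at 0.21 ± 0.089 TPM and Zscan4e at 0.173 ± 0.060 TPM (SD, n = 3). Zscan4 copies are nearly identical, so the division of reads between them is uncertain. Duxf3, Tcstv1, Tdpoz1 and Gm4340 had 0 counts in every library. A count of 0 allows up to 3 counts, which is 0.263, 0.464 and 0.518 CPM in the 3 libraries, so lower levels were not detectable at this depth. This limit covers counting error only.

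Of 12 germline genes reported as silenced through H3K9 methylation, 6 reached 1 TPM, near the 44.1% of all protein-coding genes that did. The highest were Tuba3a at 17.96 ± 2.27 TPM, Dazl, an RNA-binding protein of germ cells, at 14.7 ± 3.94 TPM, and Stk31 at 2.66 ± 0.51 TPM (SD, n = 3). Tuba3a shares reads with the near-identical Tuba3b and is uncertain. The lowest were Tex101 at 0.103 ± 0.059 TPM and Tdrd1 at 0.03 TPM in each library. Of 16 imprinted genes in domains bound by ZFP57, some of them non-coding, 12 reached 1 TPM. That limit was passed by 44.1% of protein-coding genes and by 11000 of all 55487 genes. Gnas was at 35.8 ± 14.6 TPM, the non-coding RNA Meg3 at 31.5 ± 9.88 TPM and Plagl1 at 19.8 ± 8.24 TPM (SD, n = 3). Igf2 was at 0.243 ± 0.140 TPM and Airn at 0.03 ± 0.026 TPM (SD, n = 3). Parental alleles were not separated, so these levels do not tell an imprinted from a biallelic gene.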

How the data were processed

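RNA from 3 replicates of E14 mouse embryonic stem cells was measured; samples were grouped and numbered by title. The submitters' processing notes name mm10, STAR and RSEM among builds and tools; versions, annotation release, strand setting and each tool's role are not given in the sources used here. Per the file headers, the authors deposited expected counts (estimated, not normalized) for 55487 genes. The authors also deposited TPM, scaled by effective length and to a common total, which is the level used here. The authors deposited FPKM too, which was not used. The tables hold length and effective length, which differed by 137.11, 147.26 and 132.8 nt in long genes.

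Genes were matched by ID to GENCODE vM21 (GRCm38), with 55227 matched. No contrast between groups exists, so members were described by TPM per library, mean and SD. Members were compared within libraries as log2(TPM + 1), a scale that understates differences of low genes. Counts were rounded and tested for variation between replicates with edgeR 4.0.16 (R 4.3.3): TMM, filtering by expression, trended dispersion, goodness of fit against an intercept-only fit, Benjamini-Hochberg adjustment over 12577 genes, threshold 0.05. The test was checked on simulated data, where it called nearly all changes of 4-fold or more in 1 replicate and missed most 2-fold changes. Precision follows depth: the members had 114 to 7316 counts per library. RefSeq promoters (GRCm38.p6) were read with Python 3.11.15 and matched by symbol, all 10 members being found.

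The members and lists were chosen with earlier results of these data known. All members were named, and all genes of lists of at most 6 other than the cell type markers. Of longer lists, the 3 highest, the 2 lowest and any called as varying were named. Of the cell type markers some were named, with the summed level of each list. Of 110 list entries 109 matched, with Zfp42 entered both as a stem cell marker and as a repressor partner. Alternatives were other units, pseudocounts, TPM limits, filters, size factors (DESeq2 1.42.0), a length offset and leaving out each replicate. Added after the data were seen was the longest coding transcript as length, set for all genes at once with TPM rescaled. Genes without a coding transcript took their longest transcript, and genes under 500 nt kept the deposited effective length.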

Additional observations from a re-analysis of the deposited data

How the results depend on the processing

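Of 56 alternatives over 8 results, 46 left the value within the spread, or the count within 1.5 times. The median log2 level of 4.13 became 6.78 as CPM, which carries no length, 5.53 when TPM was rescaled without genes of short effective length, and 3.60 with the longest coding transcript as length (chosen after seeing the data). The median over expressed protein-coding genes is not given under these settings, so these values cannot be set beside it. The longest coding transcript as length also moved Ehmt1 minus Ehmt2 to -0.95 and Cbx5 minus Cbx1 to 0.022, and turned Suv39h1 minus Suv39h2 to 0.077. As CPM, Cbx5 minus Cbx1 was 2.37. Genes called as varying numbered 63 to 93 with a replicate left out, where fewer samples entered; 89 were called without replicate 1, 63 without replicate 2 and 93 without replicate 3. Members called as varying numbered 0 under the alternatives run. No paired analysis was possible because the RNA-seq replicates form 1 group and the other groups have no values analysed here. Depth limits Suv39h1 most: at 114 counts in replicate 3 its counting error alone was 0.135 on the log2 scale.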

Other observations

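The 9683 expressed protein-coding genes together held 172113 to 226960 TPM per library, while all 11000 expressed genes held 996645 to 997899. Most of the TPM total therefore lay in genes of other types, 1 of which had a mean of 110975 TPM. The members' TPM are levels within that total, and their order and ratios within a library do not depend on it.

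The annotated Trim28 gene begins 25038 bp before the start that RefSeq gives for it, the start used for the printed promoter. Over tested genes with a mean count of at least 100, put into 10 classes of length, the deviation of replicate 3 from the mean of the libraries differed between classes. Its median, on the log2(TMM-scaled CPM + 1) scale, was 0.03 in the length class of Cbx1 and -0.15 in that of Cbx5, the longest class. Cbx1 itself deviated by 0.13 and Cbx5 by 0.04. Suv39h1 deviated by -0.23 and Ehmt1 by -0.17, in a class with a median of -0.02.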
